A study of Mus musculus with 12 samples.

Results

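F480-high cells of the infarcted mouse heart, a macrophage sort, were compared by the activity of their p16 locus. The comparison set 3 libraries of cells with high green fluorescence and high F480 (P16hi) against 3 libraries of cells with low green fluorescence and high F480 (P16lo), 6 of the 12 libraries of the series, chosen by these sort labels alone. Every mouse behind both groups had the genotype p16-2A-CreER;R26-mTmG. The first allele places a tamoxifen-dependent Cre recombinase under the p16 locus, and the reporter turns a cell from red to green fluorescence where Cre has acted. The mice underwent myocardial infarction (MI), were given tamoxifen by gavage on day 5, and the infarct was taken on day 7. Cardiomyocytes were removed before sorting. Green fluorescence therefore marked cells whose p16 locus was active near the tamoxifen dose, not p16 protein at harvest. The labels give no strain, age or sex, and nothing in them says that replicate libraries are separate animals. The p-values rest on the spread among the deposited libraries, and that spread may be technical.

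p16, a product of Cdkn2a, inhibits the cyclin-dependent kinases that start the cell cycle, and its expression is a common marker of senescent cells. Adgre1 encodes F480 (F4/80), a surface receptor of mouse macrophages. After infarction, monocytes enter the scar from blood, while resident cardiac macrophages take up dying cells, handle iron and lipid, and partly renew themselves by division. The series title asks about the chemokine Ccl8 in P16-positive cells.

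Libraries of the same group differed widely. Total counts were 27.9, 24.1 and 15.5 M (1 M is 1000000 counts) in P16hi libraries 1 to 3 and 26.3, 27.7 and 22.9 M in P16lo libraries 1 to 3. Levels below are CPM, counts per M of the TMM-scaled library size. The table is made of 2 column blocks, 1 with P16hi 2, P16hi 3 and P16lo 3, the other with P16hi 1, P16lo 1 and P16lo 2, and the labels do not say what a block stands for. P16lo 1 and P16lo 2 were the closest pair, with a chi-square per degree of freedom of 34.3 over genes against 257 to 1195 for the other pairs. They differed beyond sampling noise and were counted as 2 libraries. A difference in a bulk library can come from fewer cells of a type or from less RNA per cell, and these cannot be told apart.

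The macrophage label held least well in P16lo 3. Macrophage identity genes summed to 67744, 31197 and 20133 CPM in P16hi 1 to 3, against 44479, 40407 and 4723 CPM in P16lo 1 to 3. C1qa, a complement subunit made by macrophages, had 4729, 274 and 875 CPM in P16hi and 3556, 2772 and 11.4 CPM in P16lo libraries. B cell markers ran the other way, with 24, 1672 and 248 CPM in P16hi and 512, 467 and 7811 CPM in P16lo. P16lo 3 thus had the highest B cell and the lowest macrophage sum of the 6 libraries. Its Cd79a, a B cell receptor subunit, stood at 2565 CPM, where the other 5 libraries had 3.07 to 489 CPM.

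P16hi 3 and P16hi 2 stood apart in other ways. Endothelial markers summed to 96, 64 and 5848 CPM in P16hi 1 to 3, against 83, 88 and 151 CPM in P16lo 1 to 3. Cardiomyocyte markers summed to 33, 7 and 1038 CPM in P16hi and 16, 14 and 3 CPM in P16lo. P16hi 3 was the highest library for both lists. P16hi 2 was the highest for recruited monocyte genes, at 15694 CPM against 3761 to 9234 CPM in the other 5, and its Ly6c2, a surface marker of inflammatory monocytes, had 1386 CPM against 4.57 to 302 CPM. T and NK cell genes summed to 111, 298 and 24 CPM in P16hi and 347, 251 and 350 CPM in P16lo. Ccl5, which other cells also make, held most of the sum in several libraries. Cd2, which T and NK cells carry, had 0.555, 46.5 and 1.24 CPM in P16hi and 12.9, 12.7 and 134 CPM in P16lo. P16lo 3, the library highest in B cell genes, was also the highest for Cd2, and the part of B cells in this was not tested. Cd3e, of the T cell receptor complex, had at most 2.17 CPM and the coreceptor gene Cd8a at most 2.69 CPM.

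**Figure D1:**
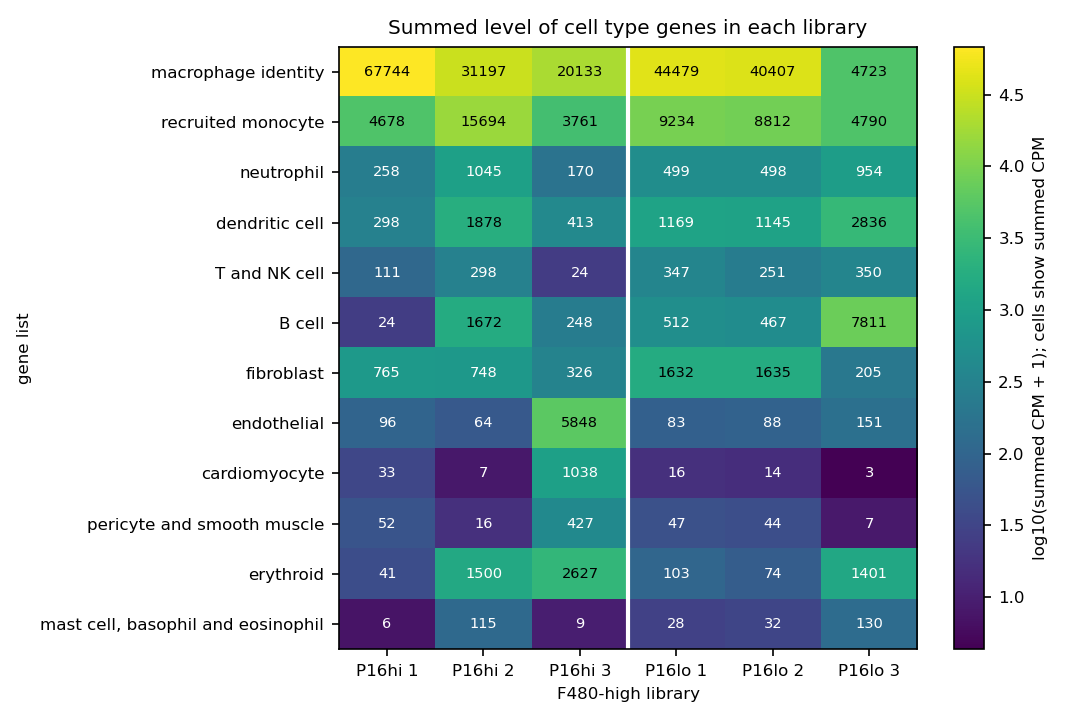
Summed CPM of the genes of each cell type list (rows) in the 3 P16hi and 3 P16lo libraries (columns); the colour is log10(summed CPM + 1) and each cell shows the summed CPM. P16lo 3 has the highest B cell and lowest macrophage sum, and P16hi 3 the highest endothelial and cardiomyocyte sums.

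Cdkn2a, whose locus drives the sort reporter, was higher in every P16hi library, and Adgre1, the gene of the sort antibody, overlapped. The Cdkn2a difference is not independent of the sort. Both groups were sorted as F480-high, so the sort sets up no Adgre1 difference between them. Cdkn2a (gene 12578, GRCm38 chromosome 4, 89274473 to 89294619, which also encodes p19Arf) had 0.555, 1.01 and 0.792 CPM in P16hi libraries, against 0.17, 0.191 and 0.114 CPM in P16lo libraries. Each P16hi library was above each P16lo library, at very low levels in both. The mean difference in log2(CPM + 1) was 0.62, with an exact two-sided permutation p of 0.1, the smallest that 3 against 3 libraries can give. Adgre1 (gene 13733, chromosome 17, 57358581 to 57483529) had 1802, 226 and 360 CPM in P16hi and 1137, 1591 and 33.5 CPM in P16lo libraries. The groups overlapped, and the difference of 0.41 in log2(CPM + 1) had an exact two-sided permutation p of 0.8. It was -1.35 without P16lo 3 and -0.47 without P16hi 1, so its direction rested on these libraries. It rested on the model too, since edgeR gave a log2 fold change of -0.21 (SE 1.31), a ratio of mean CPM of 0.864, and 1.76 (SE 0.80) with the column block as a term.

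Over the whole table no gene passed the test. Of 12490 genes tested, edgeR's quasi-likelihood test with Benjamini-Hochberg adjustment called 0 higher and 0 lower in P16hi cells (0% each way), while 242 genes were higher (1.94%) and 38 lower (0.304%) with an unadjusted p under 0.05, in all 2.24%. DESeq2 called 2 higher (0.0167%), Mgst1 and F13a1, and 1 lower (0.00837%), Pkmyt1. The spread between libraries of a group was wide, with a common biological coefficient of variation of 0.73. On counts simulated with that same spread for every gene, edgeR recovered 3 of 100 genes changed 4-fold and 55 of 100 changed 16-fold. In the data the spread differed by gene, with an SE of 0.34 for Mgst1 and 2.26 for Ccl8. The recovery rates therefore do not describe single genes. The P16hi and P16lo libraries did not overlap for 421 genes higher (3.37%) and 435 genes lower (3.48%) in P16hi, and the median log2 fold change over all genes was 0.00. Every log2 fold change below is P16hi over P16lo and every named gene that was tested had an edgeR adjusted p of 0.999.

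Mgst1 had the smallest p of the genes that were higher in every P16hi library. Mgst1, a membrane-bound glutathione transferase that detoxifies lipid peroxides, had 192, 180 and 106 CPM in P16hi 1 to 3, against 33, 29.5 and 29.3 CPM in P16lo 1 to 3. The lowest P16hi library stood well above all 3 P16lo libraries, which were close together. Its log2 fold change was 2.38 (SE 0.34), from 2.21 to 2.62 when any 1 library was left out, and DESeq2 gave an adjusted p of 1.1e-06. Gstm1, a cytosolic glutathione transferase (gene 14862, GRCm38 chromosome 3, 108012250 to 108017973), had 274, 82.4 and 296 CPM in P16hi and 65.3, 58 and 33.8 CPM in P16lo libraries. P16hi 2 was only just above P16lo 1, and the log2 fold change was 2.05 (SE 0.57). Of the 28 tested genes of the glutathione and antioxidant list, 2 were higher in every P16hi library, namely these, and 0 lower, where 3.37% of all genes were higher and 3.48% lower. The list median was 0.41, against 0.00 over all genes. Other members overlapped: Gpx3, a secreted glutathione peroxidase, had 492, 27.2 and 98.8 CPM in P16hi and 70.5, 57.9 and 6.52 CPM in P16lo, and Gstp1 136, 300.1 and 204 against 160, 134 and 200 CPM.

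F13a1 and Thbd, 2 genes of the coagulation list, were also higher in every P16hi library. F13a1, the A subunit of coagulation factor XIII, which crosslinks fibrin and is made by macrophages, had 596, 487 and 359 CPM in P16hi libraries, against 116, 150 and 70.4 CPM in P16lo libraries. The groups did not overlap, with log2 fold changes of 1.86 to 2.36 over the 6 fits that left out 1 library and 2.10 (SE 0.43) with all. Thbd, thrombomodulin, which turns thrombin toward anticoagulant protein C, had 51.9, 77.2 and 302 CPM in P16hi and 20, 23.3 and 18.4 CPM in P16lo. P16hi 3, the library high in endothelial genes, was the highest, and Thbd is also an endothelial gene. The part of those cells in the difference was not tested. The log2 fold change was 2.81 (SE 0.71) with that library and 1.66 without it. These were the 2 of 16 tested coagulation and fibrinolysis genes that did not overlap, both higher, where 3.37% of all genes were higher and 3.48% lower. The list median was 0.17.

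Of the glycogen list, Gyg had the smallest p. Gyg, glycogenin, the protein primer of glycogen (gene 27357, chromosome 3, 20122083 to 20155117), had 224, 161 and 124 CPM in P16hi, against 61.5, 64.8 and 79.1 CPM in P16lo libraries. All P16hi libraries were above all P16lo libraries, with a log2 fold change of 1.31 (SE 0.33). Gbe1, the glycogen branching enzyme, had 11.6, 14.5 and 14.9 CPM in P16hi and 6.75, 10.2 and 10.4 CPM in P16lo. Its log2 fold change of 0.59 had an SE of 0.39. Ppp1r3b, a glycogen-targeting subunit of protein phosphatase 1, had 10.5, 9.67 and 11 CPM in P16hi and 5.98, 8.6 and 7.29 CPM in P16lo, a narrow separation. Of 20 tested glycogen genes, 3 did not overlap and were higher and 0 lower, where 3.37% of all genes were higher and 3.48% lower. The list median was 0.33, and 0 members passed the test.

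Other genes of smallest p that were higher in every P16hi library had varied roles. Vps13c, a lipid transfer protein, had 25.6, 22.7 and 41.7 CPM in P16hi and 13.8, 11.8 and 10.5 CPM in P16lo. Fyco1, an adaptor that moves autophagosomes, had 19.5, 39.9 and 43.3 CPM in P16hi, against 12.9, 13.1 and 14.3 CPM in P16lo. The log2 fold changes were 1.31 (SE 0.36) for Vps13c and 1.34 (SE 0.39) for Fyco1. Others leaned on P16hi 3: Rapgef3, an exchange factor for Rap1 that senses cAMP, had 2.73, 4.02 and 121 CPM in P16hi and 0.509, 0.917 and 0.343 CPM in P16lo. Its log2 fold change was 6.15 with P16hi 3 and 2.51 without it. Arhgef12, an activator of RhoA, had 14.2, 12.9 and 57.9 CPM in P16hi against 5.73, 4.74 and 4.88 CPM in P16lo, and Zcchc24, a zinc finger gene, 27.3, 27.2 and 58.5 against 15.1, 14.2 and 13.2 CPM. Mxra7 had 21.1, 90.5 and 86.3 CPM in P16hi and 15.4, 11.5 and 18.3 CPM in P16lo, with the 2 high libraries both in the block of P16hi 2 and P16hi 3.

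**Figure D2:**
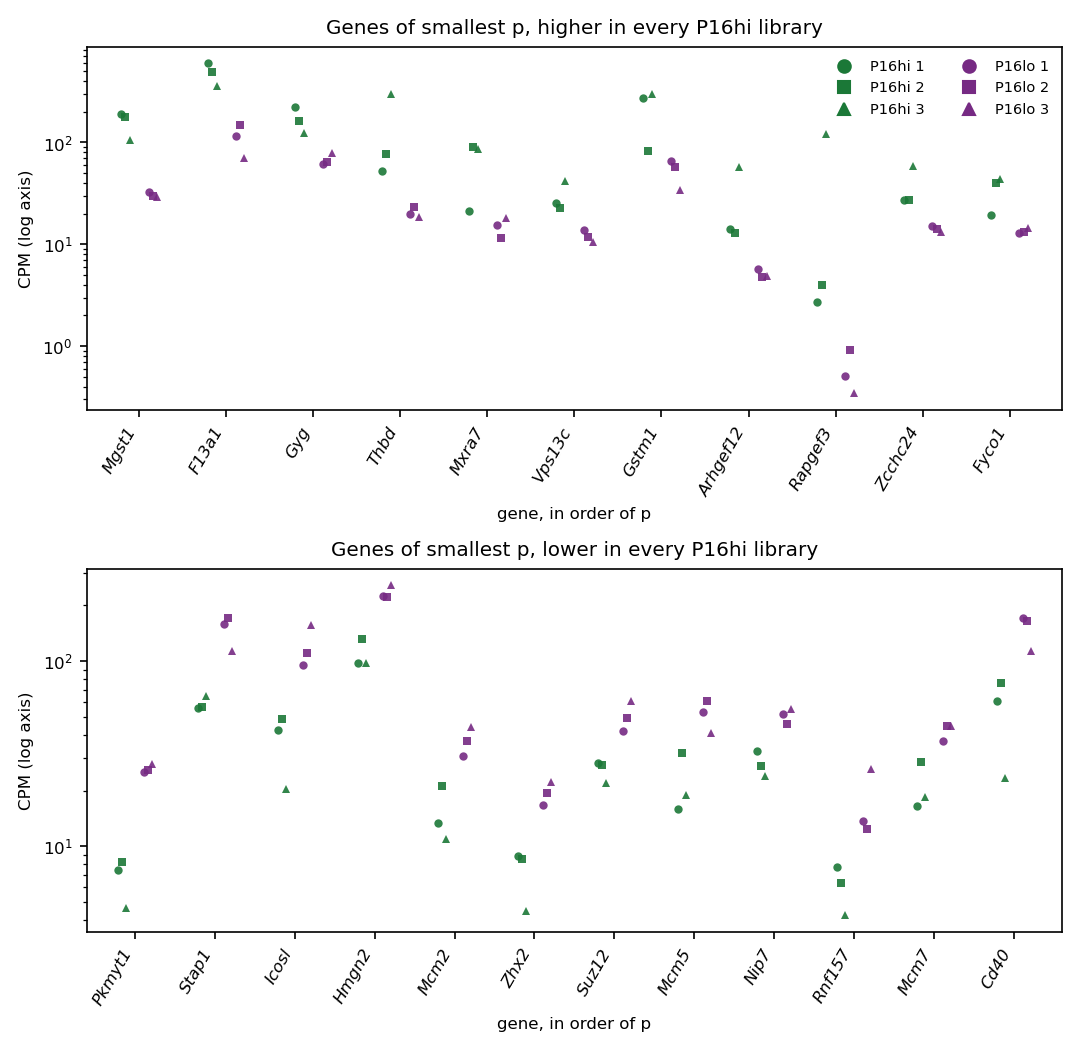
CPM (log axis) of genes of smallest p that were higher (top) or lower (bottom) in each P16hi library than in each P16lo library, in order of p; each point is 1 library, green P16hi and purple P16lo, with the shape giving the replicate number. Mgst1 lies between 106 and 192 CPM in P16hi and between 29.3 and 33 CPM in P16lo, and Pkmyt1 between 4.64 and 8.23 CPM in P16hi and between 25.3 and 27.9 CPM in P16lo.

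DNA replication genes were mostly lower in P16hi cells. Of 39 tested members, 37 had a log2 fold change below 0, with a median of -0.90 against 0.00 over all genes. In 9 members every P16hi library was below every P16lo library, and in 0 members above, where 3.48% and 3.37% of all genes were so placed. Mcm2, Mcm5 and Mcm7 encode subunits of the helicase that opens DNA at replication origins. Their promoters are shown because the 3 genes lie on separate chromosomes and were all lower. The windows run from 250 bases before to 50 bases after the RefSeq start on GRCm38.p6, 5′ to 3′ on the gene's strand. Capitals mark matches to TTTCCCGC, TTTCGCGC, TTTGCCGC or TTTGGCGC on either strand, the letters of the binding motif of E2F, the factor family that drives replication genes once cyclin-dependent kinases are active.
Mcm2, chr6:88898731-88899030, minus strand: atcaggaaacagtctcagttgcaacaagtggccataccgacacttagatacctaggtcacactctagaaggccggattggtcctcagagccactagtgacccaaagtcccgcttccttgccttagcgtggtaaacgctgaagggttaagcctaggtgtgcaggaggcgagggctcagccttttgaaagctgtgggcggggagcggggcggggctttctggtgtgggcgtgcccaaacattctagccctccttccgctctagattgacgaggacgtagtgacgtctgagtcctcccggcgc
Mcm5, chr8:75109259-75109558, plus strand: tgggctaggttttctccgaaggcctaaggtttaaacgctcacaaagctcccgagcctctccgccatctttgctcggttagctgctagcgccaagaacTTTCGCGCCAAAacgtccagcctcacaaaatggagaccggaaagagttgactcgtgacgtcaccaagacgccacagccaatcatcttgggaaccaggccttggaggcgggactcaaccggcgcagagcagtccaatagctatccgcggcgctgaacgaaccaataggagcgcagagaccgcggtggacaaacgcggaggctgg
Mcm7, chr5:138171834-138172133, minus strand: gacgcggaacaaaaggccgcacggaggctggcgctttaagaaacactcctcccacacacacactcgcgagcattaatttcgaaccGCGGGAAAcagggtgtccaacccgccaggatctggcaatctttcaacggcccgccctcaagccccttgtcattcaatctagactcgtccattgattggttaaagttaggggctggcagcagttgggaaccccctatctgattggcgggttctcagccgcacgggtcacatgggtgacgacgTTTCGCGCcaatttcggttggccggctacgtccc
The Mcm5 window held 2 matches that overlap, the Mcm7 window 2 separate matches and the Mcm2 window 0. A second listed start of Mcm7 held 0. Of the 31 replication genes with a listed promoter, 13 (41.9%) held at least 1 match, against 462 of 10038 tested genes with a listed promoter (4.6%). A match describes the letters of the window and is not a measured binding site. The share follows from the choice of list and motif and would be the same at any P16hi and P16lo levels. Lower genes were not compared with unchanged ones, and the cause of the lower levels was not tested.

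The helicase genes had these levels. Mcm2 had 13.3, 21.1 and 11 CPM in P16hi 1 to 3, against 30.9, 37.1 and 44.2 CPM in P16lo 1 to 3. Mcm5 had 16, 32 and 18.9 CPM in P16hi and 53, 60.8 and 40.7 CPM in P16lo, and Mcm7 16.5, 28.7 and 18.4 against 37.1, 44.9 and 44.4 CPM. P16hi 2 was the highest P16hi library for each and still stood below all P16lo libraries. The log2 fold changes were -1.31 (SE 0.36) for Mcm2, -1.21 (SE 0.37) for Mcm5 and -0.99 (SE 0.32) for Mcm7. Fen1, the flap nuclease that trims Okazaki fragments, had 18.6, 29.8 and 5.2 CPM in P16hi and 38.8, 36.9 and 50.1 CPM in P16lo, and Rrm1, a subunit of ribonucleotide reductase, 24.5, 27 and 15.5 against 38.8, 53.3 and 32.7 CPM. Neither overlapped, with log2 fold changes of -1.23 (SE 0.61) and -0.90 (SE 0.35). Pole, Rfc5 and Ung were among the other members that did not overlap. Pcna, the sliding clamp of the polymerases, overlapped between the groups.

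Mitosis genes gave a less even picture. Of 32 tested members, 30 had a log2 fold change below 0 with a median of -0.74. Without overlap were 2 members, both lower, where 3.37% of all genes were higher and 3.48% lower. Pkmyt1, the kinase that holds Cdk1 inactive before mitosis, had 7.43, 8.23 and 4.64 CPM in P16hi, against 25.3, 26 and 27.9 CPM in P16lo libraries. Each group was tight and they were far apart. Its log2 fold change was -1.96 (SE 0.37), from -2.11 to -1.74 when any 1 library was left out, and DESeq2 gave an adjusted p of 0.00175. Cenpa, the histone of centromeres, had 53.9, 36.6 and 24.1 CPM in P16hi and 80.3, 68.9 and 99.96 CPM in P16lo, with a log2 fold change of -1.12 (SE 0.37). Kif23, a kinesin of the dividing cell's midbody, had 4.14, 9.32 and 4.58 CPM in P16hi against 13.1, 16.4 and 5.65 CPM in P16lo, where P16lo 3 fell inside the P16hi range. P16lo 3, rich in B cell genes, was low for many mitosis genes, so that their median difference was 0.68 within the block of P16hi 2, P16hi 3 and P16lo 3 but -1.20 within the block of P16hi 1, P16lo 1 and P16lo 2. For replication genes the same medians were -0.45 and -0.90. Without P16hi 3 and P16lo 3, 28 of 39 replication genes and 25 of 32 mitosis genes were lower in both remaining P16hi libraries than in both P16lo libraries. Of all genes 15.3% were. These counts carry no test. The subset was chosen after seeing the data, its P16lo libraries are the closest pair of the 6, and genes of a list are not independent replicates.

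**Figure D3:**
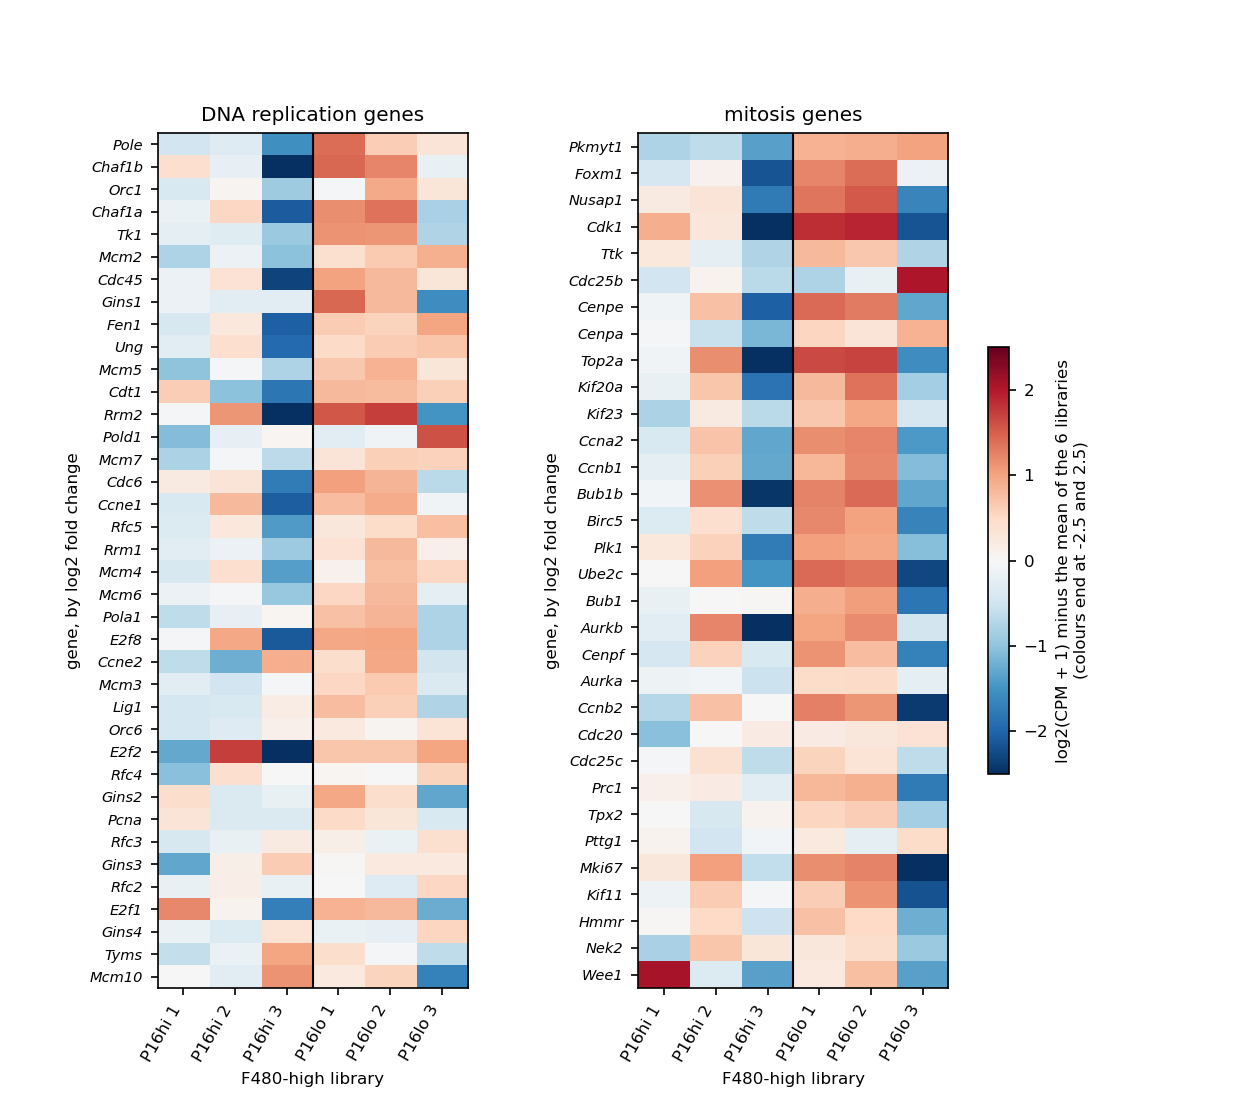
Genes of the replication (left) and mitosis (right) lists, 1 per row and sorted by log2 fold change, in the 3 P16hi and 3 P16lo libraries; colour is log2(CPM + 1) minus the mean of the gene over the 6 libraries, blue below and red above. P16lo 1 and P16lo 2 are red for most rows, P16hi 3 is blue for many, and P16lo 3 is red for many replication genes but blue for many mitosis genes.

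Hmgn2, Suz12, Nip7, Zhx2 and Rnf157 were also among the lower genes of smallest p. Hmgn2, a nucleosome-binding protein, had 97.9, 132 and 97.8 CPM in P16hi, against 226, 222 and 257 CPM in P16lo libraries. Suz12, a subunit of Polycomb repressive complex 2, had 28.3, 27.6 and 22.1 CPM in P16hi and 41.8, 49.2 and 60.7 CPM in P16lo. Nip7, which matures the large ribosomal subunit, had 32.6, 27.1 and 23.9 CPM in P16hi, against 51.8, 45.7 and 55.5 CPM in P16lo. None of the 3 overlapped, with log2 fold changes of -1.10, -0.96 and -0.87 (SE 0.30, 0.29 and 0.27). The zinc finger and homeobox repressor Zhx2 had 8.88, 8.54 and 4.47 CPM in P16hi, against 16.8, 19.5 and 22.2 CPM in P16lo, and Rnf157, a RING finger protein, 7.72, 6.35 and 4.24 against 13.8, 12.4 and 26 CPM. All 30 ribosomal protein genes tested had a log2 fold change below 0, with a median of -0.45. Of these, 3 did not overlap and were lower, where 3.48% of all genes were. Their summed level was 26463, 36166 and 38760 CPM in P16hi 1 to 3, against 43511, 32822 and 63732 CPM in P16lo 1 to 3. The sums thus overlapped, with P16lo 2 below P16hi 2 and P16hi 3, and P16lo 3 was the highest library. Rps3, 1 of those 3, had 874, 916 and 950.1 CPM in P16hi and 1410, 1082 and 1658 CPM in P16lo.

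MHC class II levels were low in P16hi 1 and P16hi 3 only, and 0 members passed the test. MHC class II genes, which display peptides to helper T cells, had a median log2 fold change of -1.47 over 10 tested members, all 10 below 0. Their summed level was 3449, 56142 and 12866 CPM in P16hi 1 to 3, against 64612, 54884 and 67701 CPM in P16lo 1 to 3. P16hi 1 and P16hi 3 were far below the P16lo libraries, while P16hi 2, the library highest in monocyte genes, was among them. H2-Eb1 and H2-Aa, chains of the presenting molecules, were the 2 members that did not overlap, both lower, where 3.37% of all genes were higher and 3.48% lower. H2-Eb1 had 292, 4767 and 1567 CPM in P16hi and 7772, 6612 and 6639 CPM in P16lo (log2 fold change -1.67, SE 0.93), and H2-Aa 628, 8633 and 2292 against 13197, 11155 and 10883 CPM (-1.61, SE 0.91). Without P16hi 2 these values were -2.90 and -3.00. Cd74, the invariant chain, had 1963, 31967 and 6680 CPM in P16hi and 32601, 27779 and 35792 CPM in P16lo, with P16hi 2 inside the P16lo range. B cells and dendritic cells also express these genes, and P16lo 3 had the highest summed level of both marker lists. Dendritic cell genes summed to 298, 1878 and 413 CPM in P16hi and 1169, 1145 and 2836 CPM in P16lo, and so, like the MHC class II sum, were highest in P16hi 2 among the P16hi libraries. Ccr7 alone gave 1785 CPM of the dendritic cell sum in P16lo 3 and 616 CPM in P16hi 2. Some members were not highest in P16lo 3. Zbtb46 was highest in P16hi 3, at 54.9 CPM against 10.1 CPM in P16lo 3, and Flt3 and Cd209a in P16hi 2. Of 14 tested dendritic cell genes, 8 had a log2 fold change above 0 and 6 below. The part of B cells and dendritic cells in the MHC class II difference was not tested.

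Icosl and Cd40 led the costimulatory list. Icosl, the ligand of the T cell receptor ICOS, had 42.6, 49 and 20.4 CPM in P16hi, against 95, 111 and 157 CPM in P16lo libraries. Cd40, which receives help from T cells, had 60.8, 76 and 23.5 CPM in P16hi and 171, 164 and 114 CPM in P16lo. No P16hi library reached the lowest P16lo library for either gene, and the log2 fold changes were -1.70 (SE 0.42) and -1.48 (SE 0.48). Cd86, a ligand of CD28, overlapped with 338, 176 and 59.6 CPM in P16hi and 424, 508 and 123 CPM in P16lo, as did Cd80 and the checkpoint ligand Cd274. Of 16 tested members, 13 were below 0, and 3 did not overlap and were lower, where 3.48% of all genes were. The median was -0.56, and 0 members passed the test. The third, Cd70, had at most 1.57 CPM in any library. Stap1, an adaptor of myeloid and B cell receptor signalling, had 55.7, 56.4 and 65.1 CPM in P16hi and 159, 171 and 114 CPM in P16lo (log2 fold change -1.32, SE 0.29).

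Ccl8, the chemokine of the series title, varied widely among the P16hi libraries. Ccl8 (gene 20307, chromosome 11, 82115185 to 82116799), which draws monocytes and lymphocytes through several CC receptors, had 2000.4, 1.72 and 429 CPM in P16hi 1 to 3, against 42.7, 30.5 and 0.916 CPM in P16lo 1 to 3. P16hi 1 and P16hi 3 were above all P16lo libraries and P16hi 2 was below P16lo 1 and P16lo 2, so the groups overlapped. The log2 fold change was 5.04 (SE 2.26), from 3.11 to 5.68 when any 1 library was left out, and did not pass edgeR (adjusted p = 0.999). Within each block every P16hi library was above every P16lo library, as it was for 17.5% of all genes. In the block of P16lo 3, the library lowest in macrophage genes, this rested on 1.72 CPM in P16hi 2 against 0.916 CPM. With the column block as a term the log2 fold change was 6.77 (SE 2.10). Beside it, Ccl12, a mouse monocyte attractant, had 349, 14.3 and 239 CPM in P16hi and 131, 98.3 and 5.38 CPM in P16lo, and Ccl7, another, 1783, 183 and 314 against 676, 586 and 18.2 CPM. For all 3 genes P16hi 1 was the highest library and P16lo 3 the lowest.

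The other chemokines did not share 1 direction. Of 26 tested, 16 had a log2 fold change above 0, the median was 0.12, and 1 was higher in every P16hi library and 1 lower, shares near the 3.37% and 3.48% of all genes. Ppbp, a platelet basic protein that attracts neutrophils, was the higher one, with 7.13, 7.99 and 29.5 CPM in P16hi and 4.46, 3.21 and 0.382 CPM in P16lo (log2 fold change 2.47, SE 1.03). Ccl21a, the lower one, had at most 1.03 CPM in any library. Ligands that draw T and NK cells overlapped: Ccl5 had 65.5, 222 and 3.22 CPM in P16hi and 317, 222 and 181 CPM in P16lo, and Cxcl10 110, 43.9 and 60.3 against 199, 190 and 41.7 CPM. Cxcl12, the ligand of Cxcr4 and a gene of vessel walls, had 6.15, 3.16 and 523 CPM in P16hi, against 8.02, 8.68 and 0.229 CPM in P16lo. P16hi 3 alone was high, and the log2 fold change of 4.97 (SE 2.27) was -0.28 without it. Of 17 tested chemokine receptors, Cxcr2, a receptor of neutrophils, was the 1 that did not overlap, with 7.47, 8.58 and 4.35 CPM in P16hi and 15.3, 9.71 and 15.8 CPM in P16lo, and the list median was 0.10.

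**Figure D4:**
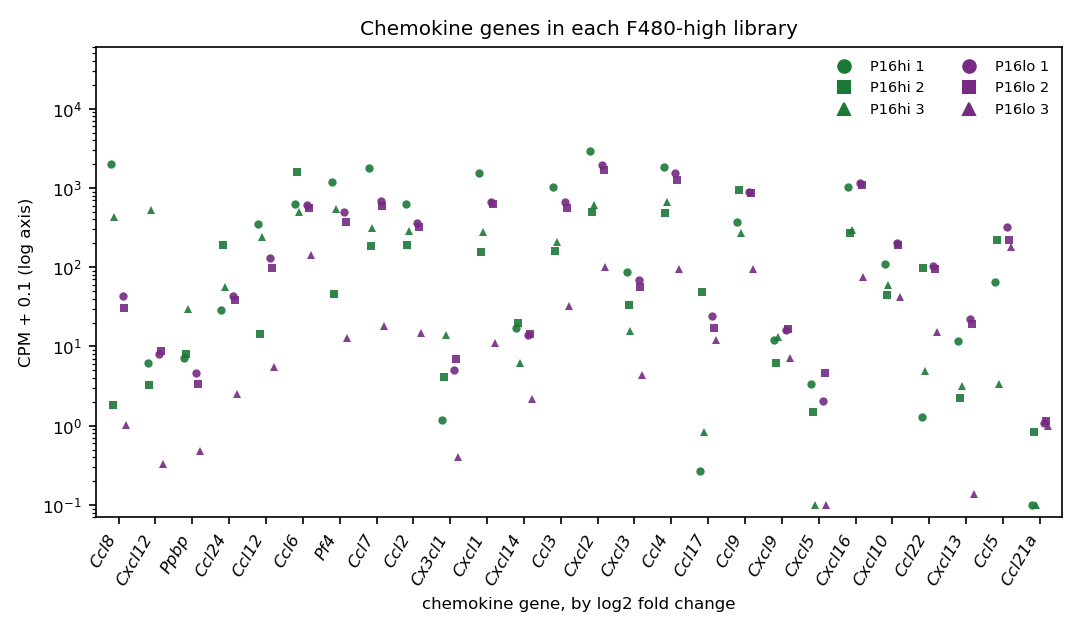
CPM + 0.1 (log axis) of the 26 tested chemokine genes, from highest to lowest log2 fold change, with 1 point per library, green P16hi and purple P16lo, and the shape giving the replicate number. Ccl8 spans 0.916 to 2000.4 CPM, and P16lo 3 (purple triangle) is the lowest library for many of the genes.

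Resident macrophage genes leaned toward P16hi cells without separating the groups. Of 17 tested members, 16 had a log2 fold change above 0 with a median of 1.27. In every P16hi library 0 were higher and 0 lower, where 3.37% of all genes were higher and 3.48% lower. Their summed level was 14311, 1407 and 5391 CPM in P16hi 1 to 3, against 3798, 3708 and 345 CPM in P16lo 1 to 3. P16hi 1 was the highest library and P16lo 3 the lowest, while P16hi 2 was below P16lo 1 and P16lo 2. Lyve1, a hyaluronan receptor of vessel-associated macrophages, had 71.1, 5.81 and 25.3 CPM in P16hi and 23.2, 22.9 and 0.687 CPM in P16lo, and Folr2, a folate receptor, 230, 8.97 and 58.8 against 56.8, 45.2 and 0.267 CPM. Both had a log2 fold change near 0 without P16hi 1 (-0.022 and -0.027), against 1.13 and 1.54 with it. Gas6, which bridges dying cells to macrophage receptors, had 627, 7.56 and 256 CPM in P16hi and 58.3, 61.5 and 1.37 CPM in P16lo, and Selenop, a secreted selenium carrier, 9311, 531 and 3426 against 1769, 2012 and 113 CPM. Their log2 fold changes were 2.88 (SE 1.68) and 1.77 (SE 1.28).

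The summed levels of lipid-associated and of heme and iron genes were also highest in P16hi 1. Lipid-associated macrophage genes had a median of 0.66 over 18 tested members, with 16 above 0, and summed to 85753, 6413 and 29421 CPM in P16hi, against 29582, 25659 and 2306 CPM in P16lo. Gpnmb, a glycoprotein of lipid-laden macrophages, had 2355, 11.4 and 193 CPM in P16hi and 78.1, 79 and 5.76 CPM in P16lo, and Spp1, osteopontin, 6138, 377 and 1275 against 1089, 1129 and 31.9 CPM. Without P16hi 1 the log2 fold change of Gpnmb was 0.90, against 3.97 with it, and that of Spp1 0.12, against 1.79. Apoe, the lipid carrier, had 51101, 2340 and 13358 CPM in P16hi and 17617, 14568 and 1155 CPM in P16lo, a log2 fold change that was above 0 with all libraries and -0.52 without P16hi 1. Slc40a1, ferroportin, the exporter of iron, had 223, 4.91 and 39.9 CPM in P16hi and 4.84, 5.24 and 2.79 CPM in P16lo. P16hi 2 lay among the P16lo libraries, and the log2 fold change was 4.38 (SE 1.30), 2.37 without P16hi 1. Heme and iron genes as a list had a median of 0.53 over 21 members, apoptotic cell uptake genes 0.51 over 18 and complement 0.18 over 20. Lysosomal genes had 0.25 over 30 and macrophage identity genes 0.08 over 20. In each of these lists 0 members separated the groups, where only 3.37% of all genes were higher and 3.48% lower, so the 0 says little.

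Setting P16hi against P16lo within the column blocks gave larger median differences for the macrophage lists other than recruited monocyte genes. Each block holds 1 library of one group, so these values carry no test, and the background is high, since 17.5% of all genes were higher in every P16hi library within both blocks and 17.7% lower. By that rule 14 of 20 macrophage identity, 13 of 17 resident, 13 of 18 lipid-associated, 13 of 21 heme and iron and 20 of 30 lysosomal genes were higher in P16hi. In the other direction were 9 of 10 MHC class II, 28 of 30 ribosomal protein, 17 of 39 replication and 9 of 9 B cell genes. The median difference of macrophage identity genes in log2(CPM + 1) was 3.02 in the block that holds P16lo 3 and 0.46 in the other. The first value includes P16lo 3 with its low macrophage gene sum, whose part in the difference was not tested. With the block as a term edgeR called 0 genes (0%), the smallest adjusted p being 0.493, while 511 genes were higher (4.09%) and 348 lower (2.79%) with an unadjusted p under 0.05.

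**Figure D5:**
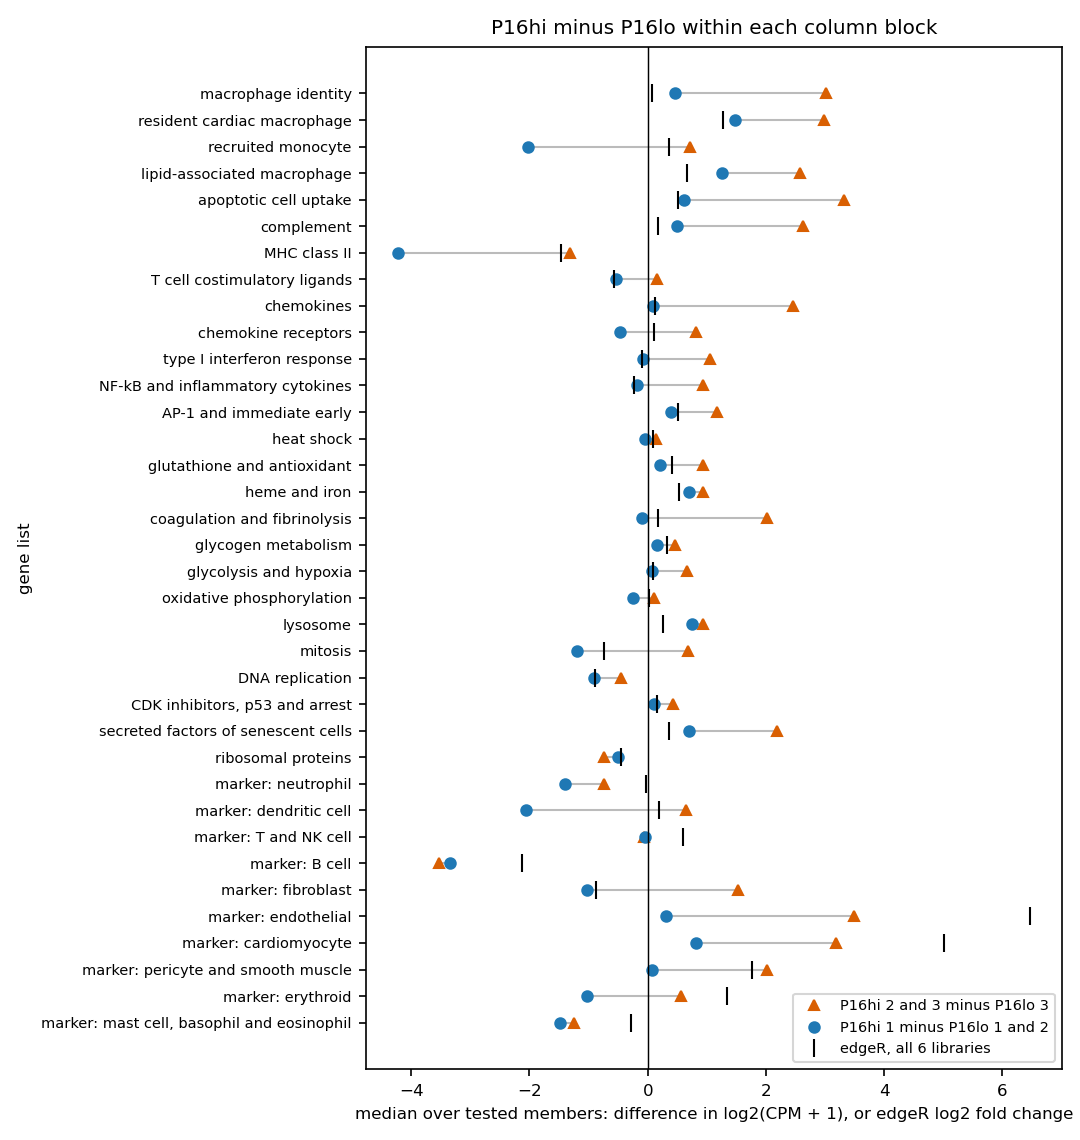
Median over the tested members of each gene list of the P16hi minus P16lo difference in log2(CPM + 1) within the block of P16hi 2, P16hi 3 and P16lo 3 (orange triangles) and within the block of P16hi 1, P16lo 1 and P16lo 2 (blue circles), beside the median edgeR log2 fold change of all 6 libraries (black bars). MHC class II, replication, ribosomal and B cell genes lie below 0 in both blocks, and resident macrophage genes above 0 in both, at 2.99 and 1.48.

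The genes with the smallest p under the block term were of 2 kinds. Those higher in P16hi included Slc9a9, an endosomal sodium-proton exchanger, Rnf128, an E3 ubiquitin ligase, Anpep, aminopeptidase N, and Clec4n, the fungal receptor dectin-2. Clec4n had 569, 162 and 176 CPM in P16hi 1 to 3 and 150, 153 and 34.1 CPM in P16lo 1 to 3, so it separated the groups also without blocks, with a block-term log2 fold change of 2.11 (SE 0.26). Anpep had 534, 40.3 and 23.8 CPM in P16hi and 76.9, 83.5 and 2.71 CPM in P16lo, Slc9a9 165, 26 and 22.6 against 37, 43.6 and 4.58 CPM, and Rnf128 99.4, 6.12 and 9.33 against 10.8, 15.2 and 1.11 CPM. These 3 overlapped, because P16hi 2 and P16hi 3 were below P16lo 1 and P16lo 2. Those lower in P16hi were Cd55, a complement decay factor, Fcer2a, the low-affinity IgE receptor CD23 of B cells, Vpreb3, a chaperone of the B cell precursor receptor, Cpm, carboxypeptidase M, and Cxxc5, a zinc finger protein. Fcer2a had 0.597, 55.3 and 15.5 CPM in P16hi and 23.4, 23.4 and 657 CPM in P16lo, and Cd55 3.37, 64.1 and 42.3 against 23.7, 27.8 and 569 CPM. P16lo 3, with its 7811 CPM of B cell genes, was the highest library for all 5 lower genes. Without it, and with no block term, the log2 fold changes of Cd55, Cpm, Cxxc5 and Fcer2a were above 0.

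Immediate early genes, which cells also induce during tissue digestion, leaned toward P16hi. Of 24 tested genes of AP-1 and its companions, 20 had a log2 fold change above 0 with a median of 0.52, 5 were higher in every P16hi library and 1 lower, where 3.37% of all genes were higher and 3.48% lower. Fos had 1818, 2298 and 4414 CPM in P16hi and 1361, 1285 and 804 CPM in P16lo, and Jun, its partner in AP-1, 352, 437 and 2022 against 250.1, 252 and 209 CPM. P16hi 3 was the highest library for both, and the log2 fold changes of 1.31 (SE 0.50) and 1.98 (SE 0.74) were 0.85 and 0.75 without it. Egr1, Atf3 and Dusp1 were the other higher ones, with log2 fold changes of 1.40, 0.99 and 0.61. Egr1 separated narrowly, its lowest P16hi library having 361 CPM and its highest P16lo library 359 CPM. Dusp2, a nuclear phosphatase of MAP kinases, was the lower one, with 211, 132 and 111 CPM in P16hi and 352, 326 and 268 CPM in P16lo (log2 fold change -1.06, SE 0.37).

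Cell cycle arrest genes showed no common shift, while secreted factors of senescent cells leaned toward P16hi within the column blocks. Of 26 tested CDK inhibitor, p53 and arrest genes, 15 had a log2 fold change above 0, and the median was 0.15. In every P16hi library 1 was higher and 1 lower, shares near the 3.37% and 3.48% of all genes. The higher one was Cdkn2a, whose locus drives the reporter that set the groups, so it is not independent of the sort. Trp53, the gene of p53, was the 1 lower, with 65.5, 86.6 and 43 CPM in P16hi and 101, 88.9 and 102 CPM in P16lo (log2 fold change -0.59, SE 0.33). Cdkn1a, the p21 inhibitor, had 699, 529 and 631 CPM in P16hi and 659, 513 and 124 CPM in P16lo, with only P16lo 3 apart. Cdkn1c, the p57 inhibitor, had 2.77, 2.34 and 158 CPM in P16hi and 1.61, 2.79 and 0.878 CPM in P16lo, so that P16hi 3 alone was high and the log2 fold change of 4.94 (SE 1.81) was 0.54 without it. Secreted factors of senescent cells had a median of 0.36 over 26 members, with 19 above 0 and 7 below, and 0 separated the groups. Within both column blocks 15 were higher in every P16hi library and 0 lower, where 17.5% and 17.7% of all genes were. The median difference in log2(CPM + 1) was 2.19 in the block that holds P16lo 3 and 0.70 in the other, and these values carry no test. Without P16hi 3 and P16lo 3 the median log2 fold change was 0.09. The 2 largest log2 fold changes of these factors were those of Igfbp3, an insulin-like growth factor carrier (5.20, SE 2.11), and Ccl8. Igfbp3 had 1.45, 0.429 and 127 CPM in P16hi and 0.594, 1.03 and 1.87 CPM in P16lo.

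Endothelial and cardiomyocyte genes were high in P16hi 3 alone. Of 15 tested endothelial markers, 15 had a log2 fold change above 0 with a median of 6.47. In edgeR 12 were higher with an unadjusted p under 0.05, where 1.94% of all genes were. With the column block as a term 0 were, where 4.09% of all genes were. Tek, the angiopoietin receptor, had 1.54, 1.83 and 207 CPM in P16hi and 0.552, 1.41 and 0.382 CPM in P16lo, and Flt1, a VEGF receptor, 2.43, 7.45 and 708 against 1.83, 2.29 and 3.93 CPM. Esam, a junction protein, followed with 3.41, 1.52 and 445 CPM in P16hi and 1.15, 1.57 and 1.98 CPM in P16lo. Fabp4 and Cd36, which carry fatty acids in capillary endothelium and in macrophages, had 65.1, 7.91 and 6863 CPM and 248, 88.2 and 2508 CPM in P16hi, against 22.9, 16.4 and 11.3 CPM and 63.9, 92.3 and 24.1 CPM in P16lo. In all 5 genes P16hi 3 was the library far above the rest. Without P16hi 3 and P16lo 3 the endothelial median was 0.03 and the cardiomyocyte median 0.62, against 5.02 over 10 cardiomyocyte genes with all libraries. B cell genes had a median of -2.12 with all libraries and 0.79 without those 2.

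In the remaining lists at most 1 member separated the groups. The medians were -0.10 for 25 type I interferon response genes, -0.23 for 25 genes of NF-kB and inflammatory cytokines and 0.09 for 25 of glycolysis and hypoxia. Those of 25 oxidative phosphorylation and 17 heat shock genes were 0.03 and 0.08. In each of these lists 0 members separated the groups, where 3.37% of all genes were higher and 3.48% lower. Cell type lists gave 0.36 for 21 recruited monocyte, -0.88 for 16 fibroblast, -0.02 for 13 neutrophil, 0.19 for 14 dendritic cell and 0.60 for 8 T and NK cell genes. Those for pericyte and smooth muscle, erythroid and mast cell, basophil and eosinophil genes were 1.77, 1.34 and -0.28 over 8, 6 and 9 genes. Fibroblast markers summed to 765, 748 and 326 CPM in P16hi and 1632, 1635 and 205 CPM in P16lo, so P16lo 3 was again unlike P16lo 1 and P16lo 2.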

How the data were processed

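The members, the gene lists and the tests were chosen with earlier results of these data known. Per the labels' protocols, cDNA was tagged by a transposase and sequenced as DNA nanoballs. The submitters' processing notes name HISAT, with GRCm38 and mm10 as builds. Its version, the counting tool and any strand setting were not stated in what was used here. Counts are therefore uncertain for genes on opposite strands of the same locus and for near-identical copies (MHC class II, glutathione transferase, hemoglobin genes). Per the file headers, each library has 4 deposited measures per gene, namely the authors' estimated count, FPKM, TPM and a normalised count, the last a signal that was not used. Identifiers joined the column blocks, and the 1373 of 17071 genes found in 1 block only were given 0 in the other. Of 17071 identifiers, 17019 (99.7%) matched RefSeq on GRCm38.p6, the source of coordinates and promoters.

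Estimated counts, rounded to whole numbers, went into edgeR 4.0.16 (R 4.3.3): filterByExpr with a minimum count of 10, TMM, a robust quasi-likelihood F-test of the 3 P16hi against the 3 P16lo libraries, and Benjamini-Hochberg adjustment with a threshold of 0.05. SE were taken from the F statistic. DESeq2 1.42.0 and limma 3.58.1 on log2(TPM + 1) were alternatives. DESeq2 gave no adjusted p for 542 genes. Cdkn2a and Adgre1 were compared by exact permutation tests. The fit was tested on simulated data. Named genes were Adgre1, Cdkn2a and Ccl8, 12 genes per direction, taken by smallest p among those whose mean log2 CPM reached 3 and whose groups did not overlap (predicted genes left out), the 5 in each direction of the fit with a column block term, and up to 3 members of smallest p from each of 36 lists, of which those printed, and the other members named, were chosen after their values were seen. The E2F motif and the promoters shown were chosen in the same way. The lists were not tested as sets. Some genes that the rule or the lists hold are not reported here.

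The deposited TPM of P16hi 3 were not a rescaling of its FPKM. Of genes with an FPKM over 5, 7.43% had a TPM to FPKM ratio within 5% of the median there, against 100% in the other 11 libraries of the series. TPM rescaled from FPKM were therefore tried too. All other results use the counts.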

Additional observations from a re-analysis of the deposited data

How the results depend on the processing

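DESeq2 called 2 genes higher and 1 lower, and edgeR and limma called 0 under every setting run. Genes higher at an unadjusted p under 0.05 (242) numbered 140 with at least 50 counts in 3 libraries, 377 with no low-count filter, 511 with the column block as a term, 106 and 105 with limma on log2(TPM + 1) and log2(TPM + 0.1), 76 with limma on TPM rescaled from FPKM, 139 without both P16hi 3 and P16lo 3, and 40 (without P16lo 2) to 563 (without P16hi 2) when 1 library was left out. Genes lower (38) numbered 95 with DESeq2, 348 with the block term, 60 with limma on log2(TPM + 1) and on rescaled TPM, 305 without both P16hi 3 and P16lo 3, and 20 (without P16lo 2) to 345 (without P16hi 2) when 1 library was left out. The replicate numbers did not pair the samples (correlations of deviations 0.47, -0.30 and 0.14), and the replicate block gave 50 genes higher and 57 lower. The Adgre1 difference ran from -1.35 to 1.42 when 1 library was left out.

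Of 1837 values of 97 genes under these settings, 1781 kept their direction and 56, in 22 genes, did not. When 1 library was left out, the log2 fold changes of Slc9a9, Rnf128, Anpep, Apoe, Lyve1 and Folr2 had their lowest values, -0.24, -0.24, -0.77, -0.52, -0.022 and -0.027, without P16hi 1, and ran up to 1.77, 2.68, 2.40, 1.54, 1.63 and 2.12. Those of Cd55, Cpm, Cxxc5 and Fcer2a had their highest, 0.51, 0.39, 0.64 and 0.023, without P16lo 3, and ran down to -3.14, -3.15, -1.86 and -4.82, and without both P16hi 3 and P16lo 3 those of Cd55, Cxxc5 and Fcer2a were 0.39, 0.27 and 0.26. Without P16hi 3 those of Igfbp3 and Cxcl12 were -0.29 and -0.28, with 5.80 and 5.55 as the highest values, and Cxcl12 had -0.84 without both. Adgre1 (-0.21 in edgeR) and C1qa (-0.11) had 1.76 and 3.10 with the block term, 0.51 and 0.64 with the replicate block, 0.65 and 1.33 with limma on log2(TPM + 1), 0.67 and 1.35 on log2(TPM + 0.1), 0.47 and 1.16 on rescaled TPM, and -1.67 to 0.44 and -1.90 to 0.49 when 1 library was left out. Ly6c2 (1.13) had -1.39 with the block term, -2.30 with the replicate block, -0.11, -0.16 and -1.90 with limma on the same 3 scales, and -4.48 (without P16hi 2) to 1.70 when 1 library was left out. Cd80 (-0.11) had 0.043 with the block term, 0.012 without both P16hi 3 and P16lo 3, 0.32 and 0.33 with limma on log2(TPM + 1) and log2(TPM + 0.1), and -0.95 to 0.30 when 1 library was left out. On those 2 scales Cd274 had 0.24 and 0.25 and Cxcl10 0.036 and 0.036, and Ppp1r3b had -0.035 on the second. Cd79a had 0.50 without both P16hi 3 and P16lo 3. When 1 library was left out, Cd79a ran from -5.20 to 0.047 (without P16lo 3), Cd274 from -0.62 to 0.031 (without P16hi 3), Cd8a from -0.24 (without P16hi 2) to 1.51 and Ccl7 from -0.79 (without P16hi 1) to 1.33. The cause of these reversals was not tested. Of 468 list medians, 27 moved by over 1 SD, in 15 of 36 lists. The settings without both P16hi 3 and P16lo 3 and on rescaled TPM were chosen after seeing the data. The shallowest library held 15.5 M counts.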

Other observations

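Several abundant gene groups differed between libraries of the same group. Lysosomal genes summed to 78356, 21754 and 18055 CPM in P16hi 1 to 3 and to 37955, 40105 and 7012 CPM in P16lo 1 to 3, and complement genes to 22242, 3256 and 4985 CPM in P16hi and to 16409, 14101 and 1032 CPM in P16lo. Lyz2, lysozyme, a secreted enzyme of myeloid cells, had 24377, 19509 and 8532 CPM in P16hi and 11305, 10751 and 1955 CPM in P16lo, with a log2 fold change of 1.13 (SE 0.78). Mrc1, the mannose receptor of tissue macrophages, had 952, 123 and 343 CPM in P16hi and 249, 278 and 6.26 CPM in P16lo, with 1.41 (SE 1.28). Erythroid genes were high in the column block of P16hi 2, P16hi 3 and P16lo 3, at 1499.8, 2627 and 1401 CPM, against 41 CPM in P16hi 1 and 103 and 74 CPM in P16lo 1 and P16lo 2.

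The FPKM of P16hi 3, rescaled to TPM like those of the libraries it was set against, correlated less with the other F480-high libraries (Pearson correlation of log2 values across genes, 0.849 to 0.890) than with some libraries of the PDGFRα-high cells that the series also sorted (0.865 to 0.941). Its deposited TPM correlated best with the FPKM of PDGFRα-high P16lo 1 (0.968), and at most 10.6% of genes had a ratio to any library within 5% of its median. By counts, the fibroblast markers of P16hi 3 summed to 326 CPM, within the 205 to 1635 CPM of the other F480-high libraries. Its Pdgfra had 3.73 CPM, against 0.458 to 2.81 CPM in the others. Its macrophage identity genes summed to 20133 CPM, within their 4723 to 67744 CPM. Genes are not independent replicates, and the labels put P16hi 3 in the F480-high P16hi group, which was kept.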
